A study of Homo sapiens with 8 samples.

Results

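The heat shock proteins and their J-domain partners were followed at the RNA level in G401, a rhabdoid tumor line of the kidney with no SMARCB1 of its own (SMARCB1 is a subunit of the SWI/SNF chromatin remodelling complexes). The chaperone genes were every protein-coding gene whose symbol began with HSPA, HSPB, HSPD, HSPE, HSPH, HSP90 or DNAJ, which gave 76 of the 20015 protein-coding genes in the count tables. By the place where their proteins are known to work, 43 were taken as cytosolic or nuclear, 13 as endoplasmic reticulum (ER) and 8 as mitochondrial, and 12 were not assigned. A further 123 genes with such symbols were not protein-coding, most of them pseudogenes, and were left out.

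Total RNA was sequenced from G401 cells that carried SMARCB1 under a doxycycline-inducible Tet-On promoter, and from a separate G401 line that carried GFP under the same system. Each line received 0.1 µg/ml doxycycline (Dox) or DMSO for 12 h, which gave 4 groups of 2 libraries, named by line and treatment (SMARCB1 Dox and SMARCB1 DMSO in the first line, GFP Dox and GFP DMSO in the other). Both transgenes are driven by an artificial promoter, and 1 line of each kind was used. The cells of several plates were pooled for each condition. The study's methods state that experiments were done in duplicate. Neither they nor the labels say whether the 2 libraries of a group came from separate cultures, so p-values measure the spread between these libraries only.

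Chaperones of the HSP70 family bind exposed stretches of unfolded protein and release them in a cycle driven by ATP. J-domain proteins, the DNAJ family, bring clients to HSP70 and trigger its ATPase, and exchange factors such as the HSP110 proteins reset it. HSP90 completes the folding of receptors and kinases, the small heat shock proteins hold unfolded clients without ATP, and HSPD1 with its lid HSPE1 folds proteins inside mitochondria. The cytosolic genes are classic targets of heat shock factor HSF1, whereas the ER genes answer to the unfolded protein response.

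Libraries held 29632090 to 37597477 reads assigned to genes. SMARCB1 had 10 and 21 reads in the SMARCB1 DMSO libraries, 30474 and 29383 reads in SMARCB1 Dox and 0 in all 4 GFP libraries, which allows up to 0.0974 CPM (reads of a gene per 1000000 assigned reads, scaled by edgeR's TMM factors) in the GFP library of lowest depth. The labels of the SMARCB1 line were thus borne out by its reads, and those of the GFP line could not be checked in this way. The mesenchymal marker VIM was at 678 to 1310 CPM, FN1 and CD44 were at most 0.219 CPM, and the leukocyte, endothelial and epithelial markers PTPRC, PECAM1, EPCAM and CDH1 were at most 0.887 CPM. Among the fibroblast markers, DCN was at most 0.0296 CPM, and COL1A1 was at 480 to 576 CPM in the GFP line and 16.7 to 24.6 CPM in the SMARCB1 line. Reads from the mitochondrial genome took 18.9% to 27.9% of assigned reads and were highest in SMARCB1 DMSO replicate 1 (27.9%), a library that also stood apart for ER chaperones.

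Together the chaperone genes took 0.750% to 0.927% of assigned reads per library. Cytosolic HSPA8, the constitutive HSP70, made up 22.9% of their summed CPM and HSP90AB1, the constitutive HSP90, 18.5%. With HSP90B1 (GRP94, the HSP90 of the ER) and HSP90AA1, the stress-inducible HSP90, these 4 genes held 55.9% of the sum. On a per-length scale, averaged over all 8 libraries, HSPA8 stood at 848 CPM per kilobase of its principal transcript, HSP90AB1 at 608 and the small heat shock protein HSPB1 (HSP27) at 494. The leading ER chaperones were HSP90B1 at 234 CPM per kilobase and HSPA5 (BiP, the HSP70 of the ER) at 85.7, and the leading mitochondrial chaperones were HSPD1 at 166, HSPE1 at 81.1 and HSPA9 (mortalin, the mitochondrial HSP70) at 56.0. On this scale the J-domain genes were led by DNAJC8 at 68.0, DNAJB1 (HSP40) at 50.7 and DNAJA1 at 48.6 CPM per kilobase. Without regard to length the ER gene DNAJC10 came first among them, with 4.21% of the summed CPM, beside 4.01% for HSPA5. Over its principal transcript of 20144 bases DNAJC10 stood at 17.5 CPM per kilobase.

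At the other end, 16 of the 76 genes did not pass the filter on low counts, and each of these had at most 43 reads over all libraries. The 60 genes tested had at least 92. There were 8 genes with no read in any library: HSPA1A, HSPA1B, HSPA1L, HSPA12B, HSPB3, DNAJB7, DNAJB8 and DNAJC5G. HSPA1A and HSPA1B, the heat-inducible HSP70 genes, are near copies of each other, and 75.1% of the 50-base windows of HSPA1A also occurred in HSPA1B, and reads found at more than 1 place were not counted. HSPA1L, with 2.25% of its windows found in transcripts of other genes, had no read either. The part of such sharing in the counts of 0 was not tested. HSPA6, a further heat-inducible HSP70 gene, had 23 reads in all 8 libraries together.

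Promoter letters of 6 genes are shown because the groups described next differ in them. HSPB8, HSPB1 and DNAJB6 are the genes with a heat shock match among those whose RNA differed after SMARCB1 induction. HSPA8 was taken as the most abundant cytosolic gene, and HSPA5 and HSP90B1 as the main ER genes. The letters are the 250 bases before the gene's start in RefSeq (GRCh38.p14), written along the gene's own strand. In HSPB8 and HSPB1 the capitals mark a pair of heat shock element units (GAANNTTC or TTCNNGAA), in DNAJB6 and HSPA8 a run of 3 units (GAANNTTCNNGAA or TTCNNGAANNTTC), and in HSPA5 and HSP90B1 the ER stress response element (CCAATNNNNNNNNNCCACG, either strand).
HSPB8, chr12:119178681-119178930, plus strand: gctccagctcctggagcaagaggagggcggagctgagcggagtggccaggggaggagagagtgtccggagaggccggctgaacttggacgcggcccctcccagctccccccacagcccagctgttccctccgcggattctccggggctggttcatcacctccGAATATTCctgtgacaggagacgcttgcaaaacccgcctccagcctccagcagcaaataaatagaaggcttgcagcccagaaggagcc
HSPB1, chr7:76302423-76302672, plus strand: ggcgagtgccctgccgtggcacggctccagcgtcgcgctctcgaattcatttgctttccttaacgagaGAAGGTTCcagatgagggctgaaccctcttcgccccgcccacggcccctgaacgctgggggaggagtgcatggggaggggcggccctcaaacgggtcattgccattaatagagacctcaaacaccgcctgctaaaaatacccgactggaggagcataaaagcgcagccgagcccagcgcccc
DNAJB6, chr7:157336754-157337003, plus strand: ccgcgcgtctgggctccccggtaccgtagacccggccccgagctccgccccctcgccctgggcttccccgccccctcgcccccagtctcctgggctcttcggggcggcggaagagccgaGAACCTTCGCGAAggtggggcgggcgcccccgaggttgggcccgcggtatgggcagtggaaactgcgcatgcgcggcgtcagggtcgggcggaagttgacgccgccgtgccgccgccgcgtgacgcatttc
HSPA8, chr11:123062137-123062386, minus strand: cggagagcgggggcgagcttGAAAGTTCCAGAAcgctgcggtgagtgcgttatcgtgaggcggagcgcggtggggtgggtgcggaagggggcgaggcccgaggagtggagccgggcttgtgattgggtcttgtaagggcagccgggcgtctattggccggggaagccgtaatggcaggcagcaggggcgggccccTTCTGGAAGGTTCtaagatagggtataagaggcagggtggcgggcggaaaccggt
HSPA5, chr9:125241344-125241593, minus strand: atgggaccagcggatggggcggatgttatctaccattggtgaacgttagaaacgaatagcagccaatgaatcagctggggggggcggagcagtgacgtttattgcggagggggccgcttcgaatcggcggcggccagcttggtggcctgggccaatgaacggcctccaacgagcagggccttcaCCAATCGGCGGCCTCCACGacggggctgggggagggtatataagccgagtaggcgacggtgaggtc
HSP90B1, chr12:103930160-103930409, plus strand: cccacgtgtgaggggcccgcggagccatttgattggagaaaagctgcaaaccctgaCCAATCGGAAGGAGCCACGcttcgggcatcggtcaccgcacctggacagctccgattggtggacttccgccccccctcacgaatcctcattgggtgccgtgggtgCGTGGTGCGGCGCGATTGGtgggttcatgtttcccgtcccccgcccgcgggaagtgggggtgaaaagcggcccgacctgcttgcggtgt

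The same letters were searched in the 35116 RefSeq promoter windows of 300 bases, from 250 before to 50 after the start, of which 89 belonged to 68 of the chaperone genes. A pair of heat shock units stood in 13.5% of all windows and in 23 of the 89 chaperone windows (25.8%). Counted by gene, where a gene can have several windows, it was in at least 1 window of 19 of 39 cytosolic, 3 of 8 mitochondrial and 0 of 12 ER chaperone genes. The run of 3 units, which contains overlapping pairs, stood in 0.490% of all windows, and in those of 6 cytosolic genes and of HSPD1. The ER stress response element was in 0.0769% of all windows and, among the chaperone genes, in those of HSPA5 and HSP90B1. No match of any of these elements was found for DNAJC22, DNAJC5, DNAJB14 or HSPA13, the other genes called after SMARCB1 induction. These matches describe the letters of the windows and say nothing of which factor was bound there.

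After SMARCB1 re-expression 7 of the 60 tested chaperone genes (11.7%) were called, where 14% of all genes were. HSPB8, a small heat shock protein that works with the co-chaperone BAG3 in clearing misfolded protein, rose 3.92-fold, and DNAJC22, a little-studied J-domain membrane protein, rose 3.04-fold. HSPB1 and DNAJC5 (cysteine string protein of vesicles) rose by 1.22-fold and 1.21-fold. DNAJB6, a J-domain protein known for holding back aggregation, and the ER genes DNAJB14 and HSPA13 fell. HSPB1 aside, the chaperones of highest level per kilobase in each compartment did not pass the test. They were HSPA8, HSP90AB1 and HSP90AA1 of the cytosol, HSP90B1 and HSPA5 of the ER, and HSPD1, HSPE1 and HSPA9 of mitochondria.

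By edgeR's quasi-likelihood test with Benjamini-Hochberg adjustment over all 15931 genes tested, called at an adjusted p under 0.05, 7 of the 60 chaperone genes differed between SMARCB1 Dox and SMARCB1 DMSO, against 14% of all genes. They were 4 higher, where 8.33% of all genes were called higher, and 3 lower, where 5.69% were. The share called among the chaperone genes was thus close to that of all genes. The libraries of the 2 groups did not overlap for 33 of the 60 genes, where 51.2% of all genes did not. The median log2 fold change of the 60 genes was -0.022, beside -0.0038 over all genes.

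HSPB8 had 61 and 50 reads in SMARCB1 DMSO, 285 and 213 reads in SMARCB1 Dox, 35 and 42 reads in GFP DMSO, and 38 and 33 reads in GFP Dox. On the CPM scale the SMARCB1 line went from 2.09 and 1.52 to 8.01 and 6.09, and the GFP line lay between 0.902 and 1.23. Both SMARCB1 Dox libraries stood above the other 6, with a log2 fold change of 1.97 ± 0.23 (SE) and an adjusted p of 3.6e-06 by edgeR. HSPB8 was called in all 4 fits that left out 1 library of the comparison, with log2 fold changes of 1.75 to 2.21. Its exons overlap an antisense gene on the opposite strand, and the strand setting of the counting is not given in the sources used here, so reads of the antisense gene cannot be told apart from its own.

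DNAJC22 had 26 and 36 reads in SMARCB1 DMSO, 116 and 98 reads in SMARCB1 Dox, 54 and 36 reads in GFP DMSO, and 42 and 44 reads in GFP Dox. The SMARCB1 Dox libraries were again the 2 highest of the 8, at 3.26 and 2.80 CPM against at most 1.60 CPM elsewhere. Its log2 fold change was 1.60 ± 0.30 (SE, edgeR adjusted p = 0.00073), and it was called in all 4 leave-one-out fits at 1.47 to 1.76.

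The other genes called higher moved by far less. HSPB1 was at 333 and 312 CPM in SMARCB1 DMSO and 430 and 359 CPM in SMARCB1 Dox, with 414 and 399.5 CPM in GFP DMSO and 407 and 419 CPM in GFP Dox. The 2 groups of the SMARCB1 line did not overlap, yet all 4 GFP libraries lay within the range of the SMARCB1 Dox group. Its log2 fold change was 0.29 ± 0.088 (SE, edgeR adjusted p = 0.029), and without SMARCB1 Dox replicate 1 it was 0.16 with an adjusted p of 0.37, and without SMARCB1 DMSO replicate 2 it was 0.24 with an adjusted p of 0.13. DNAJC5 went from 41.6 and 44.4 CPM to 54.8 and 49.1 CPM, with a log2 fold change of 0.27 ± 0.089 (SE, edgeR adjusted p = 0.045). It was not called in 3 of the 4 leave-one-out fits, where it ranged from 0.19 to 0.32 on the log2 scale, or by DESeq2 (adjusted p = 0.054).

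All 3 genes called lower lost their call without SMARCB1 DMSO replicate 1, and each also lost it without at least 1 of the Dox libraries. DNAJB6 was at 105 and 84.8 CPM in SMARCB1 DMSO, 76.1 and 70.0 CPM in SMARCB1 Dox, 67.3 and 70.8 CPM in GFP DMSO, and 68.5 and 75.7 CPM in GFP Dox. Here the SMARCB1 DMSO libraries were the 2 highest of the 8, and the Dox libraries lay near those of the GFP line. The log2 fold change of DNAJB6 was -0.38 ± 0.095 (SE, edgeR adjusted p = 0.0094), and -0.22 with an adjusted p of 0.21 without that replicate. Without SMARCB1 Dox replicate 2 it was -0.32 with an adjusted p of 0.083. DNAJB14, a J-domain protein of the ER membrane, was at 151 and 123 CPM in SMARCB1 DMSO and 104 and 109 CPM in SMARCB1 Dox, with 121 to 146 CPM in the GFP libraries. Its log2 fold change of -0.36 ± 0.096 (SE, adjusted p = 0.013 by edgeR) became -0.21 with an adjusted p of 0.24. Without SMARCB1 Dox replicate 1 it was -0.33 (edgeR adjusted p = 0.11), and with library totals -0.26 (edgeR adjusted p = 0.058). HSPA13, an ATPase related to HSP70 that lies in the ER, was at 108 and 77.9 CPM in SMARCB1 DMSO and 73.7 and 72.4 CPM in SMARCB1 Dox, and at 67.6 to 78.6 CPM in the GFP line. For HSPA13 the log2 fold change was -0.34 ± 0.11 (SE, edgeR adjusted p = 0.043), and without the replicate it was -0.094 with an adjusted p of 0.68. HSPA13 was also not called without either Dox library (adjusted p of 0.14 and 0.15), by DESeq2 (adjusted p = 0.053) or with library totals (adjusted p = 0.12).

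**Figure D1:**
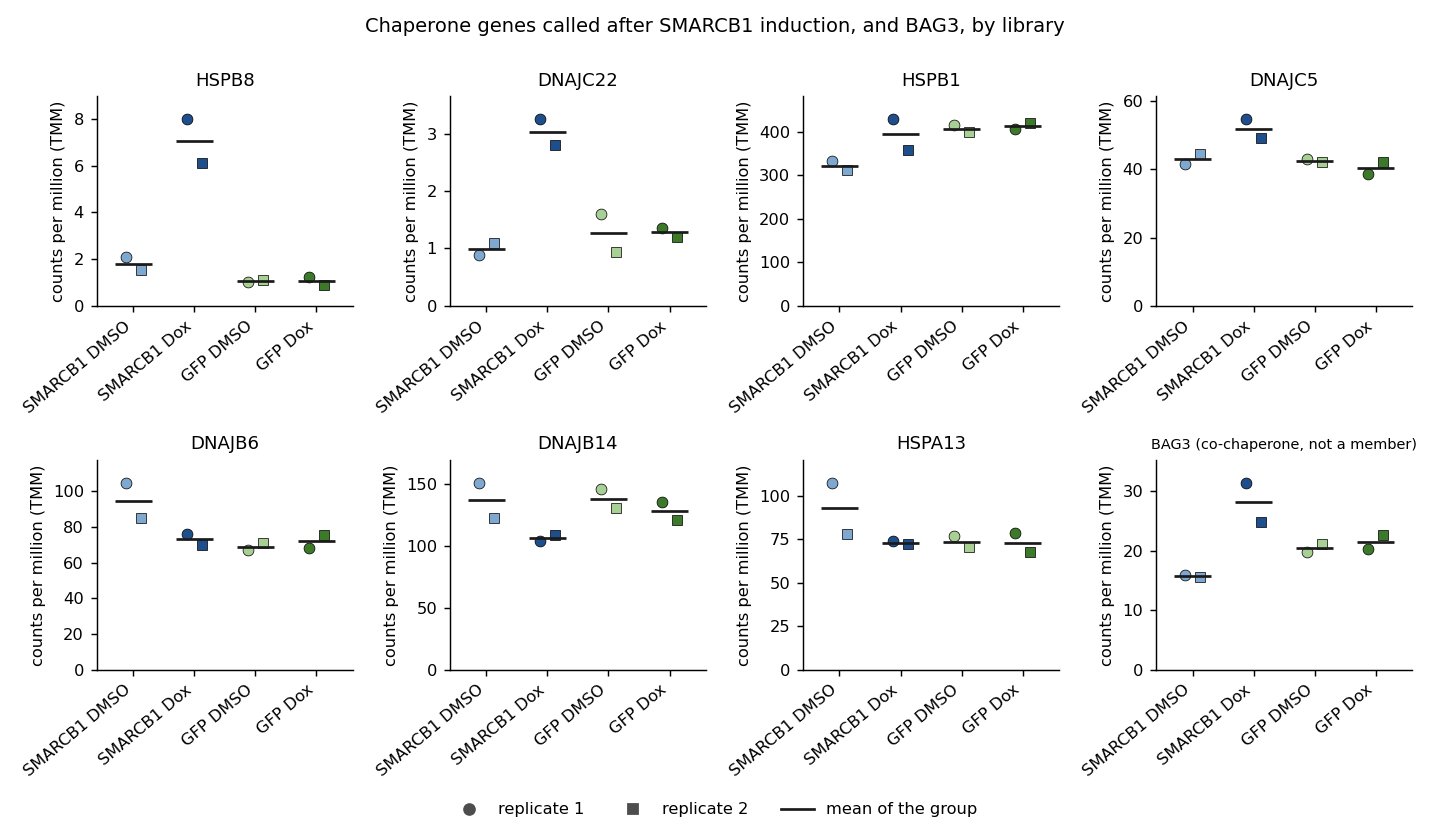
TMM-scaled CPM of the 7 chaperone genes called between SMARCB1 Dox and SMARCB1 DMSO, and of the co-chaperone gene BAG3, with 1 point per library, a bar at each group's mean and axes from 0. Both SMARCB1 Dox libraries stand highest for HSPB8 (8.01 and 6.09) and DNAJC22 (3.26 and 2.80), while DNAJB6, DNAJB14 and HSPA13 are highest in SMARCB1 DMSO replicate 1.

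Among the cytosolic and nuclear genes, 31 were tested, of which 3 rose and 1 fell, which is 12.9% called beside the 14% of all genes. The median log2 fold change was -0.0050. It was above 0 under library totals (0.087, where all genes had a median of 0.088) and in each fit without a library of the SMARCB1 line (0.031 to 0.065). The core of the heat shock system was not called. HSPA8 was at 1735 and 1637 CPM in SMARCB1 DMSO and 1779 and 1764 CPM in SMARCB1 Dox, a log2 fold change of 0.071 with a 95% interval of -0.098 to 0.24. HSP90AB1 differed by 0.12 (interval -0.052 to 0.30) and HSP90AA1 by 0.13 (interval -0.031 to 0.30) on the same scale. HSPH1, the stress-inducible HSP110, differed by 0.15 (interval -0.042 to 0.33) and DNAJB1, the main J-domain partner of HSP70 in the cytosol, by -0.016 (interval -0.22 to 0.19). These intervals leave room for changes of up to about 0.33 on the log2 scale and not for the size seen in HSPB8.

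All 13 ER genes were tested, 0 rose and 2 fell, which is 15.4% called beside the 14% of all genes. The median log2 fold change was -0.19, with 10 of 13 below 0. HSPA5 was at 452.5 and 335 CPM in SMARCB1 DMSO and 367 and 311 CPM in SMARCB1 Dox, against 298 to 312 CPM in the GFP line. Its groups overlapped, with a log2 fold change of -0.22 ± 0.11 (SE, edgeR adjusted p = 0.21). HSP90B1 was at 852 and 684 CPM in SMARCB1 DMSO, 636 and 648 CPM in SMARCB1 Dox and 576 to 614 CPM in the GFP line, a log2 fold change of -0.26 ± 0.093 (SE, edgeR adjusted p = 0.072). The J-domain partners of HSPA5 were not called either, with log2 fold changes of -0.24 for DNAJB11, -0.18 for DNAJB9 and -0.059 for DNAJC3.

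The ER values turned on SMARCB1 DMSO replicate 1. That library had the highest CPM of all 8 for 9 of the 13 ER genes, and the median log2 difference between it and replicate 2 was 0.30 over the ER genes, 0.035 over the cytosolic genes and -0.0024 over the mitochondrial genes. Without it, the median log2 fold change of the ER genes was 0.016 with 0 called, and without SMARCB1 DMSO replicate 2 it was -0.38 with 6 called lower. The same library had the highest mitochondrial read share (27.9%) and the lowest TMM factor (0.907). SMARCB1 DMSO replicate 2 came next in both, at 23.9% and 0.978, and the other 6 libraries had factors of 1.00 to 1.04. The part of these in the ER values was not tested.

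All 8 mitochondrial genes were tested and 0 were called by edgeR or by DESeq2, with 3 at an unadjusted edgeR p under 0.05, where 26% of all genes were. Their median log2 fold change was -0.028, and it was above 0 under library totals (0.063) and without SMARCB1 DMSO replicate 2 (0.019). HSPD1 (HSP60) was at 364 and 362 CPM in SMARCB1 DMSO and 383 and 367 CPM in SMARCB1 Dox, with a log2 fold change of 0.047 (interval -0.12 to 0.21). HSPE1, its co-chaperonin, differed by -0.16 (interval -0.38 to 0.073), HSPA9 by -0.043 (interval -0.23 to 0.15) and DNAJA3 (Tid1), the J-domain partner of HSPA9, by -0.083 (interval -0.36 to 0.19). HSPD1 and HSPE1 share a promoter region on opposite strands, overlap each other there, and have 18 and 26 named pseudogenes, so their counts are less certain than those of HSPA9.

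**Figure D2:**
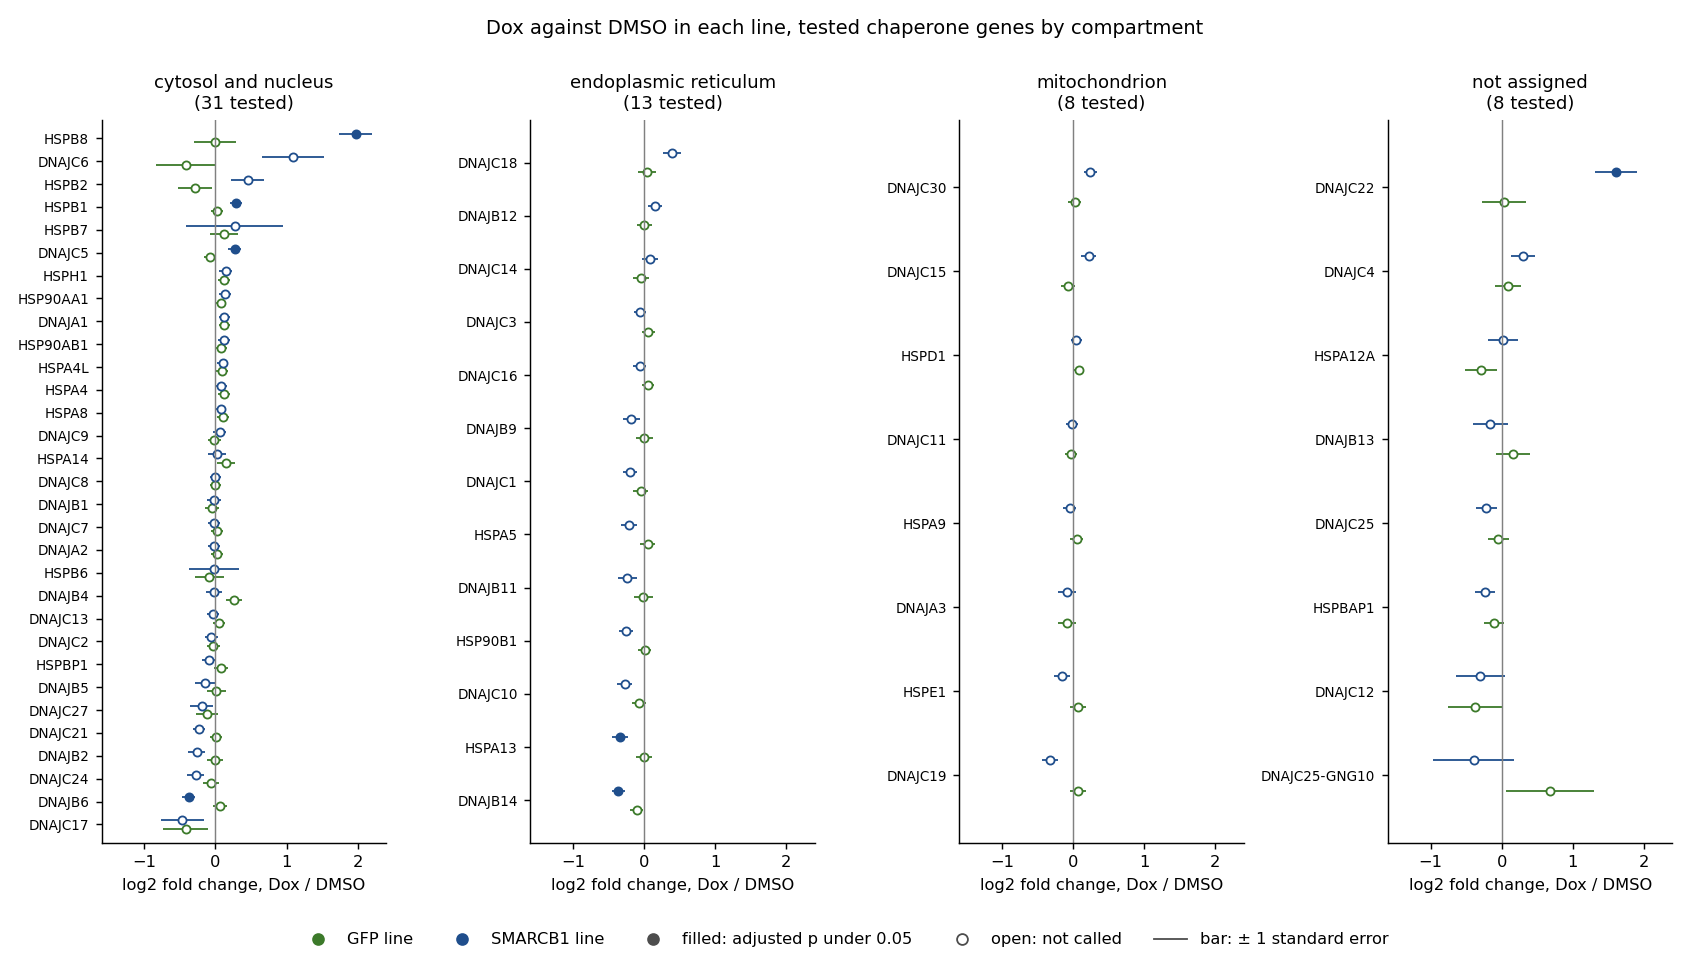
Log2 fold change of Dox over DMSO for each of the 60 tested chaperone genes, in panels by compartment, with the SMARCB1 line in blue, the GFP line in green, bars of 1 standard error and filled points for genes called at an adjusted p under 0.05. In the SMARCB1 line 7 points are filled, led by HSPB8 (1.97) and DNAJC22 (1.60), ER genes lie mostly left of 0 (10 of 13), and no point of the GFP line is filled.

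Doxycycline with GFP served as the control for the drug and for a foreign protein. None of the 60 chaperone genes was called between GFP Dox and GFP DMSO by edgeR, where 0% of all genes were called, and DESeq2 called 0 as well. At an unadjusted edgeR p under 0.05 there was 1 chaperone gene, DNAJB4, against 1.67% of all genes. The groups did not overlap for 18 of the 60, where 26.8% of all genes did not. Log2 fold changes ran from -0.42 to 0.68 with a median of 0.013. HSPB8 differed by -0.011 (95% interval -0.63 to 0.60) and DNAJC22 by 0.025 (interval -0.62 to 0.67), so that changes of these low-count genes of up to about 0.6 would not have been seen.

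The Dox effect of the SMARCB1 line was then set against that of the GFP line in a test of the difference itself. Here 2 of the 60 chaperone genes were called by edgeR, where 4.71% of all genes were. Both were higher in the SMARCB1 line (3.07% of all genes) and 0 were lower (1.64% of all genes). The difference was 1.98 ± 0.38 (SE, log2) for HSPB8 with an adjusted p of 0.0028, and 1.58 ± 0.43 for DNAJC22 with an adjusted p of 0.036. HSPB8 was called in all 8 fits without 1 library, whereas DNAJC22 was called in 3 of 8, with differences of 1.16 to 1.93, and had an adjusted p of 0.087 by DESeq2. The other 5 genes that moved in the SMARCB1 line were not called in this test. Among them, DNAJB6 had a difference of -0.44 ± 0.13 (SE, edgeR adjusted p = 0.069) and HSPB1 of 0.27 ± 0.12 (SE, edgeR adjusted p = 0.28).

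Genes that work with these chaperones were taken from 5 lists of related genes. Of 20 co-chaperones of HSP70 and HSP90, 1 rose and 2 fell in the SMARCB1 line, a share of 15% beside the 14% of all genes, with a median log2 fold change of 0.014. The riser was BAG3, the partner of HSPB8, at 15.9 and 15.5 CPM in SMARCB1 DMSO, 31.5 and 24.8 CPM in SMARCB1 Dox, 19.7 and 21.2 CPM in GFP DMSO and 20.3 and 22.6 CPM in GFP Dox. Both SMARCB1 Dox libraries were the highest of the 8 for BAG3, as they were for HSPB8, and its log2 fold change was 0.84 ± 0.12 (SE, edgeR adjusted p = 3.1e-05). The difference of its Dox effect between the lines was 0.77 ± 0.16 (SE, edgeR adjusted p = 0.0069). The HSP90 co-chaperones FKBP5 and SUGT1 fell, by 0.29 and 0.24 on the log2 scale, and were called in 2 and 0 of the 4 leave-one-out fits.

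Of 25 ER folding and unfolded protein response genes, 1 rose and 2 fell, which is 12% beside the 14% of all genes, with a median log2 fold change of -0.13 and 21 of 25 below 0. Without SMARCB1 DMSO replicate 1 the median was -0.014, with 13 of 25 below 0, 1 called higher and 0 lower, and without replicate 2 it was -0.26 with 7 called lower. EDEM1, which sends misfolded glycoproteins to degradation, rose by 0.36 ± 0.080 (SE, log2, edgeR adjusted p = 0.0036). ERO1B and ERO1A, the oxidases that drive disulfide bond formation, had log2 fold changes of -0.55 and -0.36. Without SMARCB1 DMSO replicate 1 the values of this pair were -0.26 and -0.20, with adjusted p-values of 0.18 and 0.22 by edgeR. None of the 14 TRiC and prefoldin genes, the 4 genes of heat shock factors and HSBP1, or the 15 mitochondrial folding and protease genes was called by edgeR, with 1, 0 and 1 of them at an unadjusted p under 0.05, where 26% of all genes were. HSF1 itself was at 87.2 and 83.6 CPM in SMARCB1 DMSO and 96.0 and 80.9 CPM in SMARCB1 Dox, with a log2 fold change of 0.051 ± 0.086 (SE).

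The 2 lines differed in more chaperone genes before induction than Dox moved in either. All genes showed the same order: 32% were called between the lines in DMSO, 14% after SMARCB1 induction and 0% after GFP induction. The comparison of SMARCB1 DMSO with GFP DMSO uses the same SMARCB1 DMSO libraries as the comparison above, so the values of both stand side by side here without a test of their likeness. The muscle-enriched small heat shock protein genes HSPB7 and HSPB6 were far lower in the SMARCB1 line, most of the abundant cytosolic chaperones were modestly lower, and HSPA5, HSP90B1 and 4 other ER genes were higher. Line and any other property of the separate cultures cannot be told apart, and in such bulk samples a lower share of cells with a gene and less of its RNA per cell cannot be told apart either. The fibroblast marker COL1A1 differed between the lines in the same direction as HSPB6 and HSPB7 and DCN was near 0 in both. The mesenchymal marker VIM went the other way, at 1251 to 1310 CPM in the SMARCB1 line and 678 to 755 CPM in the GFP line, and the part of other cell types in these values was not tested.

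Of the 60 genes, 23 were called by edgeR, where 32% of all genes were: 10 higher in the SMARCB1 line (16.3% of all genes) and 13 lower (15.7%). The groups did not overlap for 41 of the 60, where 64.7% of all genes did not. The cytosolic genes had 2 higher and 11 lower with a median log2 fold change of -0.10, the ER genes 6 higher and 2 lower with a median of 0.26, and the mitochondrial genes 1 higher with a median of -0.077, beside 0.015 over all genes. With library totals in place of TMM factors the split was 5 higher and 18 lower, since the median of all genes then lay at -0.10. The medians of the cytosolic genes stayed below 0 and those of the ER genes above 0 in every scaling and leave-one-out fit.

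HSPB7, known from heart and skeletal muscle, had 1 and 7 reads in SMARCB1 DMSO, 5 and 6 reads in SMARCB1 Dox, 225 and 237 reads in GFP DMSO, and 193 and 280 reads in GFP Dox. HSPB6 (HSP20), also of muscle, had 23 and 18 reads in SMARCB1 DMSO, 26 and 20 reads in SMARCB1 Dox, 212 and 174 reads in GFP DMSO, and 162 and 180 reads in GFP Dox. The lines did not overlap for either gene, and neither gene was called between Dox and DMSO in either line. In the SMARCB1 line their few reads left the Dox effect poorly fixed, with log2 fold changes of 0.27 (95% interval -1.15 to 1.70) for HSPB7 and -0.021 (interval -0.75 to 0.71) for HSPB6. Between the lines in DMSO the log2 fold change of HSPB7 was -5.60 and that of HSPB6 -3.02 (interval -3.57 to -2.47), both called by edgeR. HSPB7 passed the filter on low counts only through its GFP libraries, so its call between the lines adds no support. It is among the 13 genes counted as lower. With 1 and 7 reads in SMARCB1 DMSO, the size of its difference is poorly fixed, and no interval is given. HSPB6 overlaps an antisense gene, with the limit given for HSPB8.

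HSPB8 went the other way, with a log2 fold change of 0.75 ± 0.28 (SE, edgeR adjusted p = 0.043) between the lines in DMSO, which DESeq2 did not call (adjusted p = 0.11). HSPB2 was at 1.97 to 3.52 CPM in all libraries and was called in no comparison. Its exons overlap a readthrough gene on the same strand and CRYAB on the other, so its reads are uncertain. Of the 7 small heat shock protein genes with an HSPB symbol, HSPB3 and HSPB9 were not tested, with 0 and 4 reads in all. HSPBP1, HSPBAP1 and the readthrough gene HSPB2-C11orf52, whose symbols also begin with HSPB, are members but are not counted among these 7. Small heat shock protein genes with other symbols, such as CRYAB, were outside the rule.

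**Figure D3:**
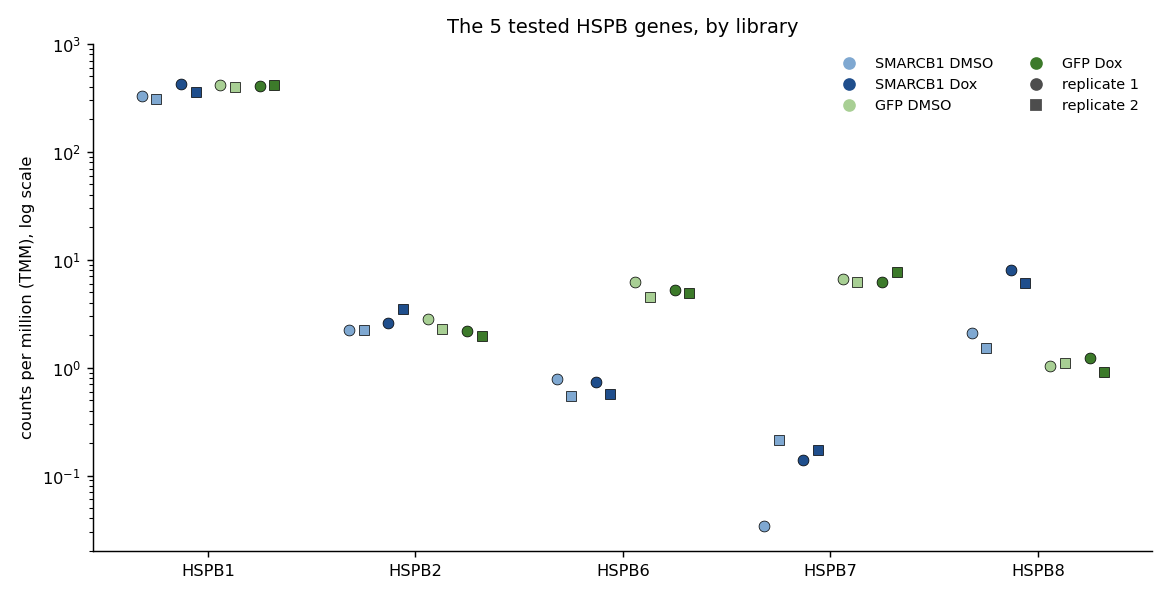
TMM-scaled CPM, on a log axis, of the 5 tested small heat shock protein genes with an HSPB symbol, with 1 point per library, colors for the 4 groups and shapes for the replicates. HSPB8 is highest in the 2 SMARCB1 Dox libraries, HSPB6 and HSPB7 are lower in all 4 libraries of the SMARCB1 line than in all 4 of the GFP line, and HSPB1 spans only 312 to 430.

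Among the abundant cytosolic genes, HSPA8 was at 1735 and 1637 CPM in SMARCB1 DMSO and 2013 and 2056 CPM in GFP DMSO, a log2 fold change of -0.27 ± 0.081 (SE, edgeR adjusted p = 0.013). HSP90AB1 was at 1335 and 1352 CPM against 1582 and 1722 CPM, with -0.30 ± 0.084 (SE, edgeR adjusted p = 0.0086). HSPA4, an HSP110 exchange factor, showed the larger difference, at 99.7 and 106 CPM against 152 and 165 CPM, with -0.63 ± 0.080 (SE, edgeR adjusted p = 2.1e-06). For these 3 genes no SMARCB1 DMSO library reached the level of a GFP DMSO library. HSPB1, HSPH1, DNAJB1 and DNAJB5 were lower by 0.34, 0.33, 0.31 and 0.40 on the log2 scale. Past the 10 largest, DNAJC2, a ribosome-bound J-domain protein, HSPA4L and HSPA8 completed the genes called lower. HSPA4, HSPB1 and HSPB6 were called in all 4 leave-one-out fits, HSP90AB1 and HSPH1 in 3, DNAJB1 and DNAJB5 in 2 and HSPA8 in 1. HSPB7 is left out of this listing because it passed the filter only through its GFP libraries. HSP90AA1, at -0.19 ± 0.080 (SE), was not called (edgeR adjusted p = 0.067).

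Of the ER genes, DNAJC1 (ERdj1), a J-domain protein of the ER membrane that also binds ribosomes, differed by the largest amount. It was at 34.2 and 34.0 CPM in SMARCB1 DMSO, 29.4 and 30.2 CPM in SMARCB1 Dox and 12.4 to 14.4 CPM in the GFP line, so that all 4 libraries of the SMARCB1 line stood above all 4 of the GFP line. Its log2 fold change was 1.29 ± 0.10 (SE, edgeR adjusted p = 1.5e-09). HSPA5 differed by 0.39 ± 0.11 (SE, edgeR adjusted p = 0.0079), HSP90B1 by 0.37 ± 0.094 (SE, edgeR adjusted p = 0.0041) and DNAJC3 by 0.38 ± 0.091 (SE, edgeR adjusted p = 0.0026). HSPA13 and DNAJC16 were higher by 0.33 and 0.26 on the log2 scale. DNAJB9 (ERdj4), a target of the unfolded protein response, went against them at -0.46 ± 0.12 (SE, edgeR adjusted p = 0.0045), as did DNAJC18 at -0.53 ± 0.13 (SE, edgeR adjusted p = 0.0029).

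Here too SMARCB1 DMSO replicate 1 carried part of the ER values. Without it the ER genes had 1 called higher and 2 lower, with a median log2 fold change of 0.15, and the log2 fold changes of HSPA5 and HSP90B1 were 0.15 and 0.20. Without GFP DMSO replicate 2 the ER count was 2 higher and 2 lower, with a median of 0.25, and over all 60 genes it was 3 higher and 8 lower. Outside the ER, DNAJB6 (0.46), DNAJC19 of the mitochondrial import motor (0.36) and DNAJC4 (0.55) were called higher on the log2 scale.

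**Figure D4:**
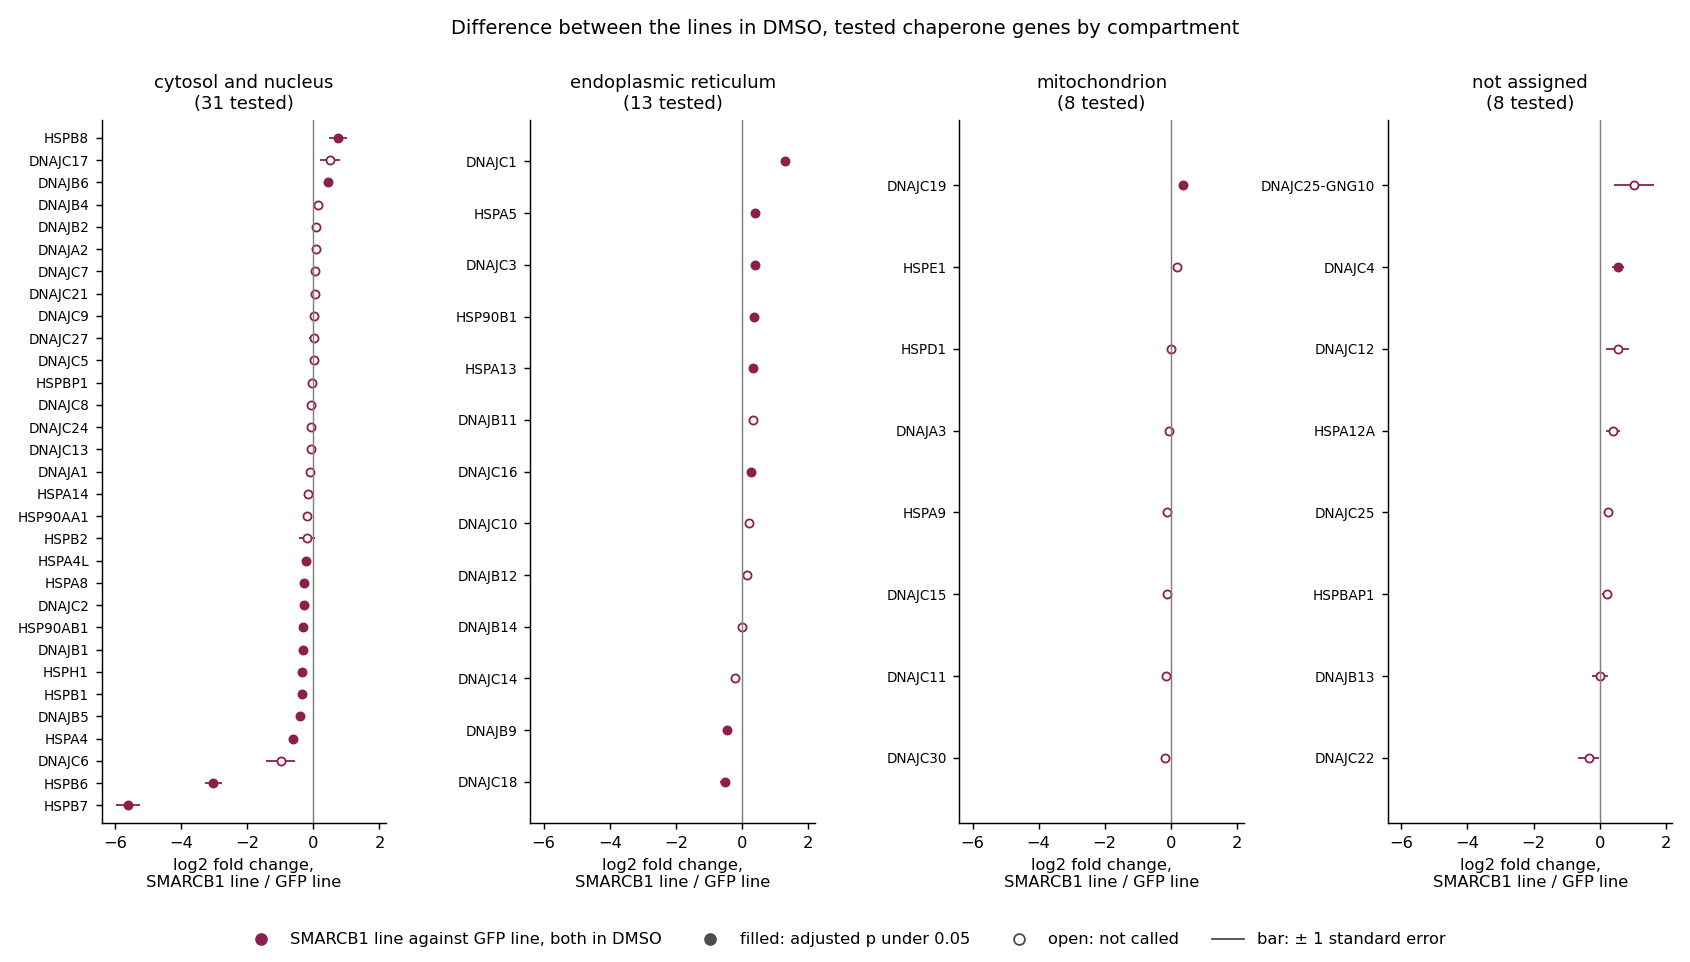
Log2 fold change of SMARCB1 DMSO over GFP DMSO for the 60 tested chaperone genes, in panels by compartment, with bars of 1 standard error and filled points for genes called at an adjusted p under 0.05. The cytosolic panel has 11 filled points left of 0, ending in HSPB6 (-3.02) and HSPB7 (-5.60), and the ER panel has 6 filled points right of 0, led by DNAJC1 (1.29).

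Of the ER folding list, 12 of 25 genes were higher in the SMARCB1 line, where 16.3% of all genes were, and 0 lower, with a median log2 fold change of 0.30, led by the stress factor gene DDIT3 (0.90), ERO1B (0.86) and the disulfide isomerase gene PDIA4 (0.52). Without SMARCB1 DMSO replicate 1 there were 6 higher and 0 lower with a median of 0.20, and DDIT3 was at 0.36 (edgeR adjusted p = 0.39), ERO1B at 0.56 and PDIA4 at 0.38. DDIT3 was also not called without GFP DMSO replicate 2 (edgeR adjusted p = 0.10). Of the 20 co-chaperones 0 were higher and 4 lower (15.7% of all genes were lower), among them CDC37L1 (-0.55) and BAG3 (-0.38). TRiC and prefoldin had 2 of 14 lower, the mitochondrial list 2 of 15 higher, and of the heat shock factors HSF1 was higher by 0.34 and HSF4 lower, at -1.25. HSF4 was called in none of the 4 leave-one-out fits (-1.34 to -1.16). DDIT3, PDIA4, CDC37L1, HSF1 and HSF4 were named after their values were seen.

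The summed CPM of each compartment shows the balance of the 2 systems in each library. In the SMARCB1 line the ER sum was 2364 and 1866 CPM with DMSO and 1823 and 1782 CPM with Dox, and in the GFP line 1783 and 1696 CPM with DMSO and 1785 and 1674 CPM with Dox. The cytosolic sum was 5155 and 4969, 5407 and 5368, 5904 and 6084, and 6273 and 6387 in the same order, so the lines did not overlap. Mitochondrial sums lay between 773 and 845 in every library. The ratio of the ER to the cytosolic sum, which no scaling changes, was 0.459 and 0.376 with DMSO and 0.337 and 0.332 with Dox in the SMARCB1 line, and 0.302 and 0.279 with DMSO and 0.285 and 0.262 with Dox in the GFP line. All 4 libraries of the SMARCB1 line were above all 4 of the GFP line, and in the SMARCB1 line both DMSO libraries were above both Dox libraries. For the pair HSPA5 and HSPA8 alone the ratio was 0.261 and 0.205, 0.206 and 0.176, 0.151 and 0.145, and 0.143 and 0.141, where SMARCB1 Dox replicate 1 overlapped with SMARCB1 DMSO replicate 2. With 2 libraries a group, an exact permutation test of such a ratio cannot give a p under 0.333 in a test of both sides, and none was made.

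**Figure D5:**
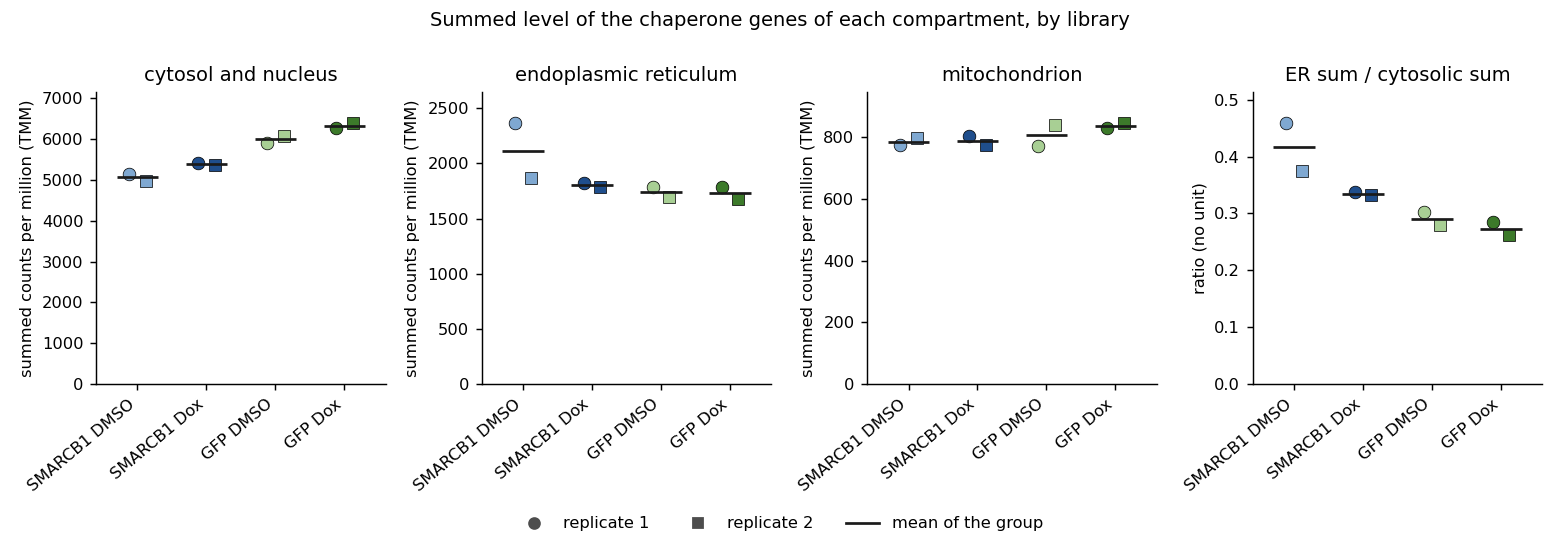
Summed TMM-scaled CPM of the cytosolic, ER and mitochondrial chaperone genes, and the ratio of the ER to the cytosolic sum, with 1 point per library, a bar at each group's mean and axes from 0. The ER sum of SMARCB1 DMSO replicate 1 (2364) stands above the other 7 libraries (1674 to 1866), and the ratio is higher in all 4 libraries of the SMARCB1 line (0.332 to 0.459) than in the GFP line (0.262 to 0.302).

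Base composition moved with the Dox effect. Over the 60 tested chaperone genes, the Spearman correlation of exon GC content with the log2 fold change was 0.37 in the SMARCB1 line, beside 0.25 over 15924 genes, and -0.014 in the GFP line. The genes of each correlation share their libraries and their depth. The ER genes had a median GC content of 40.5%, below the cytosolic (45.5%) and mitochondrial genes (45.0%), HSPB8 had 49.2% and HSPB1 63.7%. With a GC correction together with a replicate block, the log2 fold change was 0.14 for HSPB1 (edgeR adjusted p = 0.11) and 0.16 for DNAJC5 (adjusted p = 0.11). In the same fit DNAJB14 and HSPA13 moved to -0.22 each and DNAJB6 stayed at -0.37, and the ER median was -0.15. All 3 genes were called by edgeR (adjusted p of 0.018, 0.033 and 0.0030). The block without the GC correction already gave 7 chaperone genes called higher and 7 lower, against 4 and 3 in the main fit. No fit held the correction without the block, so the part of each in these calls was not tested.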

How the data were processed

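RNA-seq libraries of 4 groups of 2 were analysed. The authors aligned the reads to hg38 with STAR and deposited raw counts per gene made with HTSeq over exons (intersection-strict, GENCODE release 42). Tool versions and the strand option are not given in the sources used here, and the kit named in the labels differs from the directional kit of the study's methods. Of each library's entries, 27.0% to 29.3% named no gene (HTSeq's summary lines) and were left out. Reads were not split between near-identical copies, so genes with pseudogenes or overlapping neighbours are less certain.

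Symbols, gene types and lengths came from GENCODE release 44, which matched 62625 of 69215 gene identifiers. Counts were tested with edgeR 4.0.16 (R 4.3.3): default expression filter, TMM factors, quasi-likelihood test, all 8 libraries in 1 fit, 4 comparisons and Benjamini-Hochberg adjustment over 15931 genes at 0.05. The script was tested on simulated counts. Alternatives were DESeq2 1.42.0, RLE factors, library totals, no filter, no mitochondrial genes, only the groups compared, a replicate block without and with a GC correction, and leaving out each library. Promoter windows came from RefSeq. CPM values are TMM-scaled, and floors of 3 counts cover counting error only. Replicates differed by more than sampling noise (chi-square per degree of freedom 8.01 to 21.9), and the depth given above limits genes of few reads.

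Named were the principal chaperones whatever their change, up to 10 members called in each direction and comparison with the largest absolute log2 fold change at a mean of at least 1 CPM, and up to 3 called genes of each related list. DNAJA1, DNAJB4, DNAJC2, DNAJC8, DNAJC10, HSPA4L, HSPA6, HSPB2, HSPB9 and the genes with no read were named besides, after their values were seen. Members and lists were chosen with earlier results of these data known.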

Additional observations from a re-analysis of the deposited data

Results flagged for a closer look

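For 4 genes, the test of the difference itself found a Dox effect of unequal size in the 2 lines (edgeR, adjusted p under 0.05). They were 2 of the 60 chaperone genes, 1 of the 20 co-chaperones and 1 of the 25 ER folding genes, where 4.71% of all genes were called. No gene of the other lists was called. HSPB8 differed by 1.98 on the log2 scale (adjusted p = 0.0028), with both SMARCB1 Dox libraries above the other 6. DNAJC22 differed by 1.58 (adjusted p = 0.036 by edgeR), again with both SMARCB1 Dox libraries above the other 6. As given above, DESeq2 did not call DNAJC22, and its edgeR call depended on single libraries. BAG3, the co-chaperone that binds HSPB8, differed by 0.77 (edgeR adjusted p = 0.0069) and was called in 7 of 8 fits without 1 library. ERO1B, an ER disulfide oxidase, differed by -0.63 (edgeR adjusted p = 0.043). It was at 70.4 and 48.2 CPM in SMARCB1 DMSO, 42.2 and 38.5 CPM in SMARCB1 Dox and 31.0 to 36.6 CPM in the GFP line, and it was called in 1 of 8 such fits, so its call rests on single libraries.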

How the results depend on the processing

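No call of a single gene changed direction under any alternative. Of 1317 alternative values for 104 gene results, 1199 kept direction and side of the threshold, 94 lost the call, 24 gained it, and 71 of those kept were uncalled with the opposite sign. Between SMARCB1 Dox and DMSO, 7 genes were called, 4 with only the groups compared and 3 to 10 without 1 library. With library totals 7 were higher and 1 lower, as the median of all genes then lay at 0.088. For the difference of the Dox effects the count of 2 became 1 by DESeq2, 4 without the filter and 1 to 6 without 1 library. The count of 23 between the lines was 11 to 20 without 1 library (11 without GFP DMSO replicate 2, 15 without GFP DMSO replicate 1 or SMARCB1 DMSO replicate 1). In GFP Dox against DMSO the count was 0 in each alternative.

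The median log2 fold change after SMARCB1 induction was 0.087 for cytosolic and 0.063 for mitochondrial genes with library totals, and without 1 library it ranged from 0.031 to 0.065 (cytosolic), -0.38 to 0.016 (ER) and -0.025 to 0.019 (mitochondrial). Replicate numbers gave correlations of 0.031 to 0.15 between same-numbered libraries and were not taken as pairs. With the replicate block 14 genes were called after SMARCB1 induction, and 13 with the block and a GC correction, where the cytosolic median was 0.080. The causes of these shifts were not tested. With 2 libraries a group and few reads of HSPB8 and DNAJC22, depth limits their fold changes.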
